A study of Coffea canephora with 12 samples.

Results

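RNA-seq libraries of *Coffea canephora* leaf explants taken 21 days after the induction of somatic embryogenesis (dai), when the first embryogenic structures appear, were compared with libraries of explants taken at 2 dai. The members were chosen by their time point labels and are 4 of the 12 libraries of the study, 2 at each time point. Plantlets were first pretreated with naphthaleneacetic acid and kinetin, and discs cut from their leaves were then cultured in the dark in liquid Yasuda medium. The medium held 5 µM benzyladenine (BA), a cytokinin, at both time points, and both are labelled as leaf tissue under embryogenic condition, so that the age of the culture is what separates them. The other 8 libraries come from the pretreatment (14, 9 and 0 dbi, in days before induction, with 14 dbi as the untreated control) and from 1 dai. The design text calls the 2 libraries of a time point technical sequencing replicates of a biological sample, and no source used here says whether they came from separate cultures. What the p-values measure is thus the spread from library to library, and if each time point is 1 sample, a difference between samples cannot be told apart from one between time points.

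In somatic embryogenesis, cells of a differentiated tissue re-enter division and form embryos without fertilization. In many species the switch is set off by auxin, alone or with a cytokinin, and cells can lower their free auxin by joining it to other molecules. GH3 (*GRETCHEN HAGEN3*) enzymes link auxin (indole-3-acetic acid, IAA) or jasmonate to amino acids, which stores or removes free auxin and, for jasmonate, makes the active hormone JA-Ile. The 18 *CcGH3* genes are the only ones to which the sources used here give names. Of the other genes, 2 that rose and 2 that fell are given by their identifiers only, without a function. In bulk explants, more cells of a kind and more RNA per cell cannot be told apart.

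Reads in genes numbered 23149951 and 36525500 in the 2 dai libraries and 10091539 and 30875717 in the 21 dai libraries. At both time points replicate 1 had the higher share of reads of low mapping quality, 20.2% at 2 dai and 20.3% at 21 dai, against 12.3% and 12.7% in replicate 2. In replicate 1 of 21 dai, 45.9% of the reads were not aligned and 29.2% fell in genes, against 23.1% and 59.9% in replicate 2. At 2 dai these shares were 33.6% and 42.3% in replicate 1 and 23.8% and 58.9% in replicate 2. Between the libraries of 1 time point, log2 levels correlated across genes with r = 0.957 at 2 dai and 0.931 at 21 dai. Their counts differed by far more than sampling noise, with a chi-square of 103.7 per degree of freedom at 2 dai and 106.5 at 21 dai. They were kept as separate libraries, and at which step they part was not tested. Whether the explants hold leaf, embryo or dividing-cell markers was not analysed here, since the identifiers are not paired with descriptions.

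Of 20745 genes tested, 275 (1.33%) were called changed between 2 and 21 dai at an adjusted p under 0.05 in edgeR's quasi-likelihood test. There were 116 genes higher at 21 dai (0.559%) and 159 lower (0.766%). The fitted changes were larger in size among the genes that rose. Their median log2 fold change was 5.23 (1.24 to 14.41), against −3.06 (−11.16 to −1.45) for the genes that fell. With the 8 and 1 genes without counts in the lower group set to the smallest change that 3 counts per library allow, the ranges were 1.24 to 14.09 and −8.11 to −1.45. A size of 3 or more on the log2 scale was reached by 94 of the 116 and by 82 of the 159, and a size of 5 or more by 63 and 18. In comparison, 8.41% of all genes tested reached 3 and 3.1% reached 5, with a median over all of 0.01. At an unadjusted p under 0.05 there were 3244 genes (15.6%), and in 11491 (55.4%) the 2 libraries of 21 dai both lay above, or both below, those of 2 dai. The number of calls depended on every one of the 4 libraries. It was 0 without replicate 1 of 21 dai, 36 without replicate 2 of 21 dai, 4 without replicate 1 of 2 dai and 28 without replicate 2 of 2 dai. It also depended on the tool and on which other libraries were fitted. The number was 1668 with DESeq2, 2730 when the 4 libraries were fitted alone and 813 when 9 dbi and 1 dai were left out. In these 3 fits the balance of directions turned, with 881 higher and 787 lower, 1775 and 955, and 497 and 316.

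**Figure D1:**
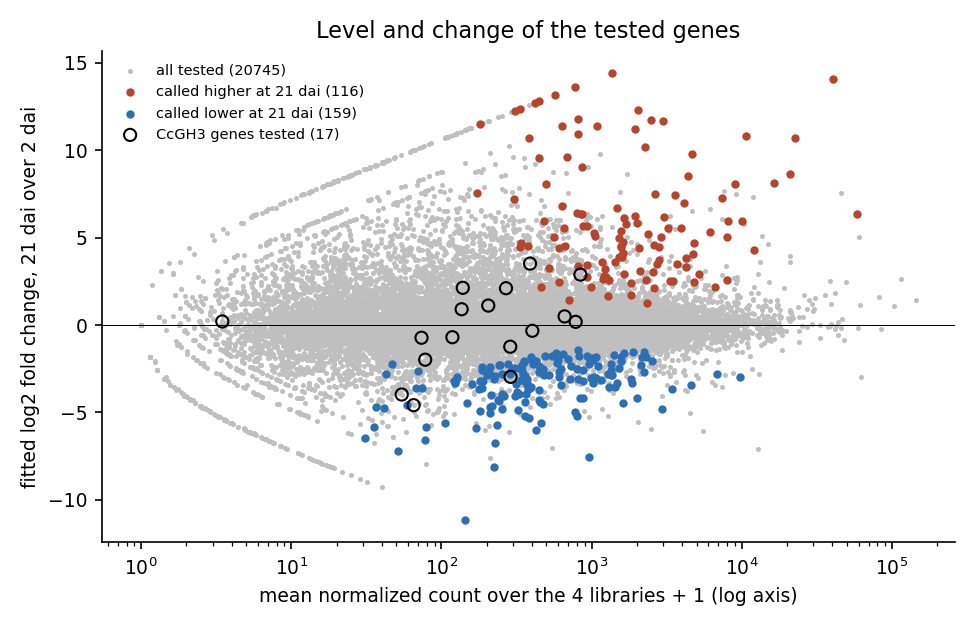
Fitted log2 fold change of 21 dai over 2 dai (vertical axis) against the mean normalized count over the 4 libraries plus 1 (horizontal log axis), with 1 point per tested gene. Red points are the 116 genes called higher, blue points the 159 called lower and open circles the 17 tested *CcGH3* genes, none of which was called; the red points reach 14.41 and the blue points −11.16.

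The median level of the 116 genes that rose was low until 2 dai. Their median normalized count (count divided by the effective library size, times the mean effective size of all libraries) was 89.8 and 101.9 in the 2 dai libraries and 3004 and 2488 in those of 21 dai. In the 8 libraries of 14, 9 and 0 dbi and 1 dai, this median lay between 71.1 and 129.9. Together these genes took 0.113% to 0.207% of the reads in genes in the 10 other libraries and 3.11% and 3.75% in the 21 dai libraries. In all 116, both 21 dai libraries lay above those of 2 dai, which the call on these same libraries largely fixes. Both 21 dai libraries lay above all 10 others in 112 (96.6%), against 13.3% of all genes tested. The call favours high 21 dai values, so it fixes part of this difference as well. Against the 6 libraries before induction, the 2 dai libraries of the 116 lay much as those of all genes tested did. Both were above all 6 in 18 genes (15.5%, against 15.2% of all tested), below all 6 in 14 (12.1%, against 11.3%) and neither in 84 (72.4%, against 73.6%). Gene by gene, though, the mean before induction exceeded that of 2 dai by a median of 0.42 on the log2 scale. Over all genes tested this median was 0.02, but the call favours genes that are low at 2 dai, which fixes part of this difference. No reads at all were counted in the 2 dai libraries for 8 of the 116 (6.9%, against 0.791% of all tested). The call rests on these same 2 dai values, so it largely fixes this difference too. In 6 of the 116 (5.17%, against 0.699%), each of the 10 other libraries had 3 counts or fewer. Such genes passed the expression filter only through the 21 dai libraries, on which the call also rests. This share is thus no separate result.

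The 159 genes that fell had a different course. Their median normalized count was 1380 to 2046 in the 6 libraries before induction, 648 to 795 in the 4 libraries of 1 and 2 dai, and 83.3 and 96.2 in the 21 dai libraries. Their share of the reads in genes was 1.98% to 3.49% before induction, 0.945% to 1.1% at 1 and 2 dai, and 0.119% and 0.154% at 21 dai. For 86 of the 159 (54.1%), both 2 dai libraries already lay below all 6 libraries before induction, against 11.3% of all genes tested. In 72 of those the 1 dai libraries did so too. The 2 dai libraries lay above all 6 in 11 of the genes that fell (6.92%), against 15.2% of all genes tested. In all 159, both 21 dai libraries lay below those of 2 dai, which the call on these same libraries largely fixes. Both 21 dai libraries lay below all 10 others in 150 (94.3%), against 7.94% of all genes tested. The call favours low 21 dai values, so it fixes part of this difference as well. The larger set of genes called by DESeq2, a choice made after seeing the data, holds 269 of the 275. It rests on the same libraries, so its course is not a separate check. The 787 called lower had medians of 1181 to 1530 before induction, 679 and 731 at 1 and 2 dai and 142 at 21 dai, and 42.2% were below all 6 libraries at 2 dai. The 881 called higher had medians of 79.5 to 110.8 up to 2 dai and 948 at 21 dai.

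**Figure D2:**
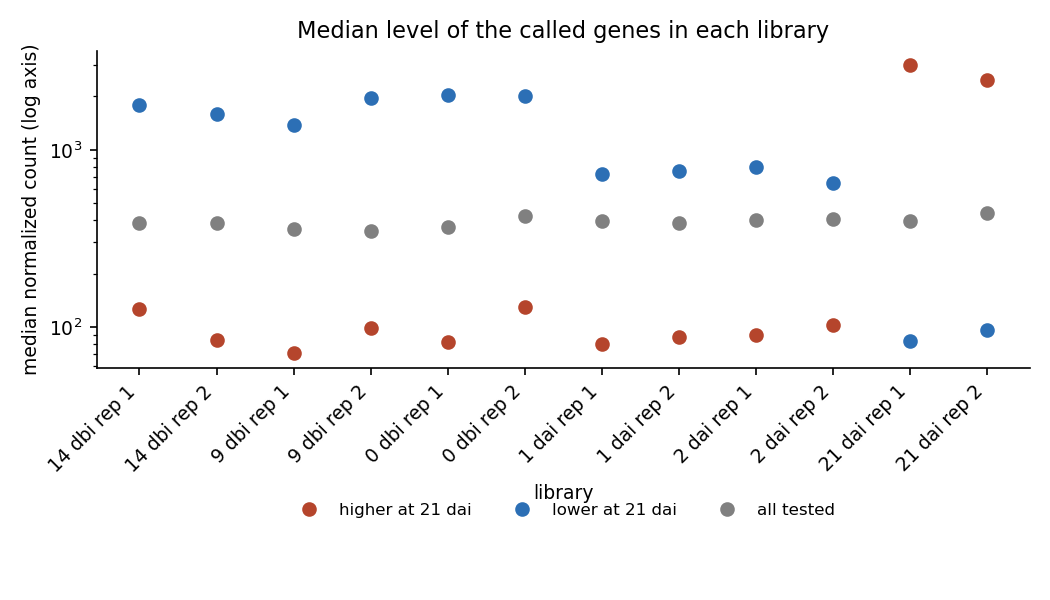
Median normalized count (vertical log axis) in each of the 12 libraries, for the 116 genes called higher at 21 dai (red), the 159 called lower (blue) and all genes tested (grey). The red points lie between 71.1 and 129.9 outside 21 dai and at 3004 and 2488 there, while the blue points take 3 levels, before induction, at 1 and 2 dai and at 21 dai.

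The gene with the largest fitted rise was *Cc07_g05540*. It had 0 counts in both 2 dai libraries and normalized counts of 3485 and 1976 in the 21 dai libraries. This rise was at least 1210-fold, taking 3 counts per library as the level that a count of 0 allows (fitted log2 fold change 14.41, SE 2.14, adjusted p = 0.0282 in edgeR's quasi-likelihood test). Outside 21 dai, reads of this gene were counted in only 2 libraries, with 26 counts in replicate 2 of 14 dbi and 7 in replicate 2 of 0 dbi. DESeq2 gave it an adjusted p of 0.0619. Across the 10 largest rises with a mean of at least 100 at 21 dai, the 2 dai values ran from 0 to 7.34 and those of 21 dai from 426 to 136190.

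*Cc05_g00760* rose from 0.941 and 7.34 at 2 dai to 25663 and 136190 at 21 dai (log2 fold change 14.09, SE 2.24, adjusted p = 0.0224 in the same edgeR test). The groups were far apart, and the 2 libraries of 21 dai also differed from each other. The 2 dai mean rests on 14 counts. In the other 8 libraries the highest value was 119, in replicate 2 of 9 dbi. The next 2 genes along the chromosome in the annotation rose too, from 1655 and 1192 to 87560 and 144450 (log2 fold change 6.35, adjusted p = 0.0102) and from 14.1 and 38.4 to 32003 and 58098 (10.71, adjusted p = 0.0359). These neighbours were also the 3 most abundant genes among the 116 that rose, by mean normalized count. One of them was thus well above 0 already at 2 dai, while the other 2 had at most 38.4. Summed, the 3 genes took 0.00767% and 0.00601% of the reads in genes at 2 dai and 0.57% and 1.54% at 21 dai. In the 8 libraries of other time points their share was between 0.00238% and 0.0194%.

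**Figure D3:**
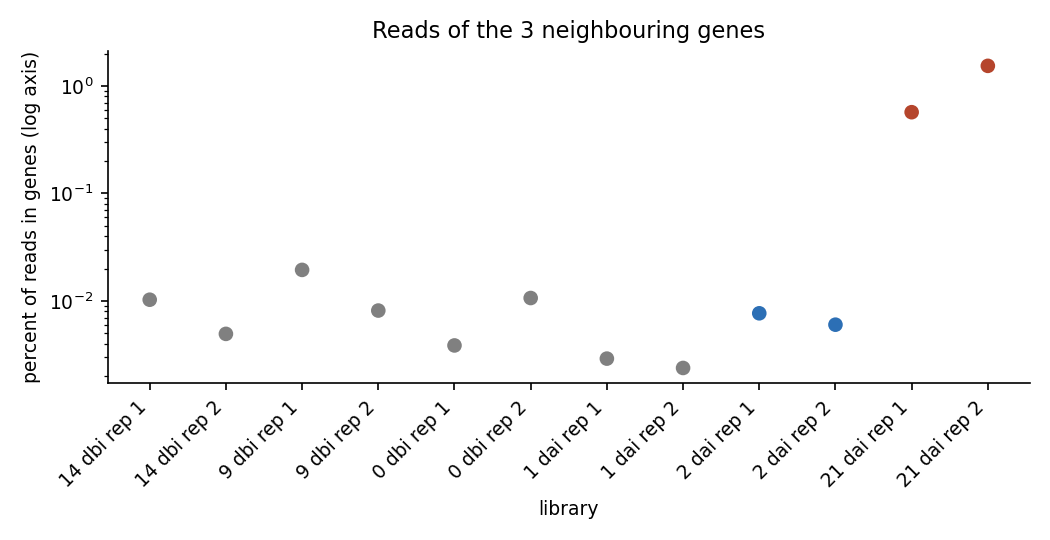
Percent of the reads in genes (vertical log axis) that fell on *Cc05_g00760* and the next 2 genes together, in each of the 12 libraries, with 21 dai in red, 2 dai in blue and the other time points in grey. The 21 dai libraries are at 0.57% and 1.54% and no other library is above 0.0194%.

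Called genes next to each other were few. Of the 275, 19 (6.91%) had an immediate neighbour that was called, against 2.22% of all genes tested, and 17 of the 19 had a neighbour called in the same direction. They formed 4 pairs and 1 run of 3 among the genes that rose and 3 pairs among those that fell. Neighbours that are copies of 1 gene could share reads, and the sequences of these genes were not analysed here.

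Both named genes with the largest falls had come up after induction. *Cc07_g16980* had normalized counts of 256 and 316 at 2 dai and no counts in either 21 dai library. The fall was at least 58.9-fold against 3 counts per library (fitted log2 fold change −11.16, adjusted p = 0.0115 in edgeR's quasi-likelihood test). Before induction its values were 0 to 11.5 in the 6 libraries, and at 1 dai they were 3156 and 2767, so that 2 dai lay between a high point and the loss of its reads. *Cc04_g15590* went from 569 and 314 to 0 and 2.14 (log2 fold change −8.11, adjusted p = 0.0223), where the 21 dai mean rests on 3 counts and the ratio of means of 413 has a 95% counting interval of 141 to 2000 (exact Poisson, counting error only). It had 530 and 339 at 1 dai and at most 117.7 before induction. Both belong to the 11 genes that fell whose 2 dai libraries lay above all 6 before induction. The 10 largest falls started from 131 to 1921 at 2 dai and ended at 0 to 18.5. Each of the 4 named identifiers lost its call when any one of the 4 libraries was left out, with adjusted p-values from 0.0538 to 0.244 in edgeR's quasi-likelihood test.

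None of the 17 *CcGH3* genes that could be tested was called by edgeR's quasi-likelihood test over the 12 libraries, and 3 of them (17.6%) had an unadjusted p under 0.05, near the 15.6% of all genes tested. DESeq2 called these same 3, *CcGH3.1c*, *CcGH3.6b* and *CcGH3.5*. The edgeR test called *CcGH3.6b* when 9 dbi and 1 dai were left out (adjusted p = 0.0481) and with a term for the replicate number (adjusted p = 0.0444). With the 4 libraries alone it called the 3 that DESeq2 called and *CcGH3.1a* and *CcGH3.1b*. The libraries of 21 dai lay above those of 2 dai for 3 genes, below for 6 and overlapped for 8, so that 52.9% did not overlap against 55.4% of all tested. The family was measured less precisely than most genes, with a median SE of 1.06 on the log2 scale against 0.631 over all genes tested. Summed over the 18 genes, the normalized count was 3625 and 4134 at 2 dai and 6410 and 4967 at 21 dai.

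Some copies share sequence, which bears on how far their counts can be told apart. Over the first 219 bases from the start codon, *CcGH3.1a* and *CcGH3.1b* had 0 mismatches in the sequences of the study's supplementary table. Reads from this stretch thus fit both genes. The comparison stopped there because the 399 bases read for *CcGH3.1b* ended, and later bases were not compared. The first 120 bases, in lower case since no base differs, are the same run for both names.
CcGH3.1a: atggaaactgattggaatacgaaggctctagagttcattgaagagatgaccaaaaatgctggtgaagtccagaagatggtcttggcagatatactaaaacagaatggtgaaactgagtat
CcGH3.1b: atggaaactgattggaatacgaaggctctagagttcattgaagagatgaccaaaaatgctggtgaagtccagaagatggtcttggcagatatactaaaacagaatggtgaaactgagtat
The copies *CcGH3.6a* and *CcGH3.6b*, by contrast, differ at 22 of the first 45 bases when set side by side without gaps. They are shown with differing bases in capitals, since one of them had almost no counts and the other is among the 3 genes with the lowest p of the family.
CcGH3.6a: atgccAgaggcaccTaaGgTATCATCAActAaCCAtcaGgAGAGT
CcGH3.6b: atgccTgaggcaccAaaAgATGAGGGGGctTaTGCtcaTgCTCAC
No run of 31 bases is shared by these 2 copies within the 399 bases read for each, and the rest of the 2 genes was not compared. Among the *CcGH3.17* copies, 146 such runs were shared by *CcGH3.17e* and *CcGH3.17h* and 140 by *CcGH3.17a* and *CcGH3.17d*. Runs were taken at each start base and overlap, so a single identical stretch can hold many of them. *CcGH3.17b* shared 97 with *CcGH3.17e* and 87 with *CcGH3.17h*, and *CcGH3.17g* shared 34 with *CcGH3.17a* and 20 with *CcGH3.17d*.

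*CcGH3.6b* and *CcGH3.1c* resemble Arabidopsis *AtGH3.6* and *AtGH3.1*, enzymes that link IAA to amino acids. *CcGH3.6b* had normalized counts of 202 and 199 at 2 dai and 2047 and 917 at 21 dai. Both 21 dai values lay above those of the 10 other libraries, where the highest was 410. The log2 fold change was 2.88 (SE 0.69, 95% interval 1.35 to 4.42) with an adjusted p of 0.0756 in edgeR's quasi-likelihood test and 0.00103 in DESeq2. Its share of the summed *CcGH3* normalized counts was 5.58% and 4.81% at 2 dai and 31.9% and 18.5% at 21 dai. *CcGH3.6a* had 21 counts over all 12 libraries, 19 of them in replicate 1 of 2 dai, and was not tested.

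*CcGH3.1c* had 60.2 and 64.3 at 2 dai and 828 and 599 at 21 dai. The log2 fold change was 3.51 (SE 0.86, 95% interval 1.61 to 5.42), with an adjusted p of 0.0784 in edgeR's quasi-likelihood test and 0.000512 in DESeq2. Its 2 dai values were the lowest of the 12 libraries, and replicate 1 of 14 dbi, at 615, lay between the 21 dai libraries. Its share of the family's summed counts was 1.66% and 1.56% at 2 dai and 12.9% and 12.1% at 21 dai.

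*CcGH3.5* is the homolog of Arabidopsis *AtGH3.11* (*JAR1*), the enzyme that joins jasmonate to isoleucine, and lies in 1 clade with it and *AtGH3.10*. Its normalized counts were 672 and 351 at 2 dai and 48 and 79.8 at 21 dai. The groups did not overlap, and the log2 fold change was −2.97 (SE 0.77, 95% interval −4.68 to −1.25). The adjusted p was 0.0938 in edgeR's quasi-likelihood test and 0.00307 in DESeq2. At 1 dai it had 271 and 73.3, and before induction 596 to 3000, so that the 21 dai values overlapped those of 1 dai only. Its share of the family's summed counts was 18.5% and 8.49% at 2 dai and 0.748% and 1.61% at 21 dai.

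**Figure D4:**
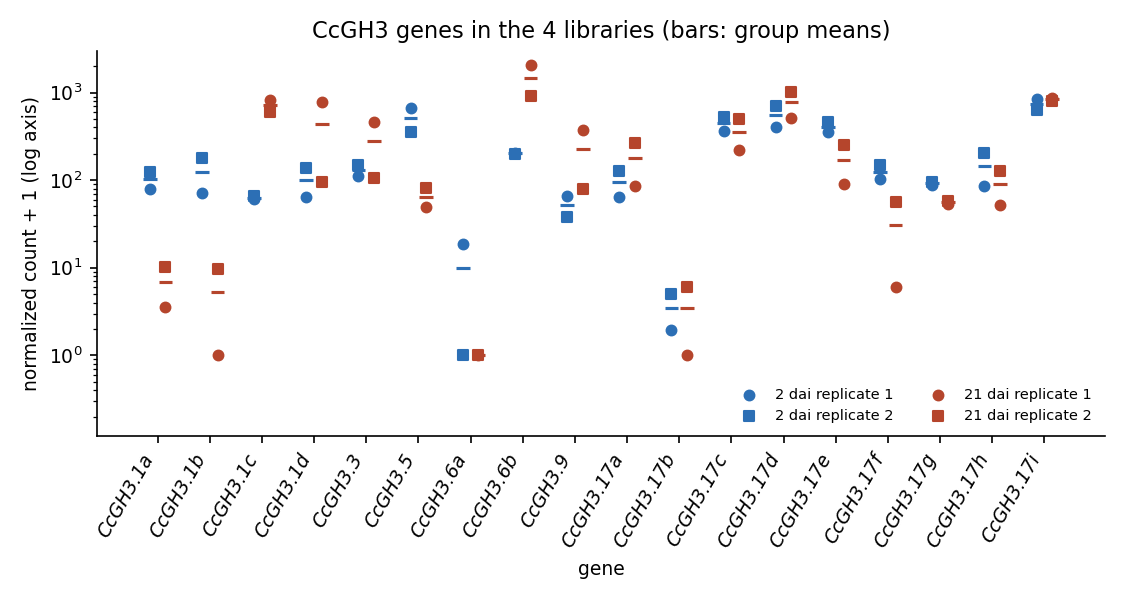
Normalized count plus 1 (vertical log axis) of the 18 *CcGH3* genes in the libraries of 2 dai (blue) and 21 dai (red), with circles for replicate 1, squares for replicate 2 and bars for the means of 2 libraries. *CcGH3.1c* and *CcGH3.6b* lie higher at 21 dai and *CcGH3.5* lower without overlap, while *CcGH3.1d* and *CcGH3.3* have replicate 1 of 21 dai well above the other 3 points.

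*CcGH3.1a* and *CcGH3.1b*, both close to auxin-conjugating enzymes of Arabidopsis, went from 78.1 and 124 to 2.52 and 9.27 and from 69.6 and 179 to 0 and 8.55. The groups did not overlap in either gene. Their log2 fold changes of −3.98 and −4.59 had SEs of 2.34 and 2.07 and adjusted p-values of 0.479 and 0.321 in edgeR's quasi-likelihood test. With the 4 libraries fitted alone, nearly the same fold changes of −3.92 and −4.51 had adjusted p-values of 0.0253 and 0.0308 in that test. In the other 8 libraries they ranged from 0 to 215.9 and from 0 to 421, so that the libraries of a single time point, such as 1.46 and 215.9 for *CcGH3.1a* at 0 dbi, could differ as much as 2 and 21 dai did.

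*CcGH3.1d* and *CcGH3.3*, which are neighbours in the annotation, differed mainly between the libraries of 21 dai. *CcGH3.1d* had 64 and 137 at 2 dai and 777 and 93.4 at 21 dai. *CcGH3.3* had 111 and 146 and then 454 and 105. Replicate 1 was higher than replicate 2 in both genes at 14, 9 and 0 dbi too, for *CcGH3.1d* by 624 to 25, 209 to 0 and 170.8 to 8.78. Replicate 1 of 14 dbi, 0 dbi, 2 dai and 21 dai has over 15% of its reads at low mapping quality. With a term marking these libraries in the edgeR fit, the log2 difference went from 2.11 to 0.40 for *CcGH3.1d* and from 1.11 to 0.13 for *CcGH3.3*. A term for the replicate number gave 0.39 and −0.16. Both terms set replicate 1 of 2 and 21 dai apart from replicate 2, so they cannot tell mapping quality from other differences between replicates. Replicate 1 of 9 dbi has 11.4% of low mapping quality and was the higher one, and replicate 1 of 2 dai has 20.2% and was the lower one. The cause of the gap was not tested. *CcGH3.9*, the homolog of *AtGH3.9*, had 64.9 and 37.2 and then 371 and 77.7, without overlap but with an adjusted p of 0.634 in edgeR's quasi-likelihood test (log2 fold change 2.13, SE 1.69).

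The 9 *CcGH3.17* copies resemble *AtGH3.17*, which in Arabidopsis conjugates IAA to glutamate. Summed, they had 2285 and 2897 normalized counts at 2 dai and 1883 and 3077 at 21 dai, and these ranges overlap. *CcGH3.17e*, *CcGH3.17f* and *CcGH3.17g* had both 21 dai libraries below those of 2 dai, with log2 fold changes of −1.24, −1.98 and −0.73 and adjusted p-values of 0.454, 0.535 and 0.842 in edgeR's quasi-likelihood test. The values of *CcGH3.17e* were 349 and 459 and then 88.3 and 249, and those of *CcGH3.17f* were 101.6 and 146 and then 5.05 and 54.9. The 21 dai libraries of *CcGH3.17g* were close to each other, at 53 and 56.3 against 86.5 and 94.8, but its values ran from 12.5 to 160.7 at the other time points. The other 6 copies overlapped. *CcGH3.17d* had 400 and 697 and then 517 and 1026, and both were above its 6 values before induction, of 19.9 to 223.8. *CcGH3.17i* was the most precisely measured, with 833 and 634 and then 863 and 800. Its log2 difference of 0.18 had a 95% interval of −0.53 to 0.89, so that a change of over 1 on the log2 scale in either direction lies outside the interval.

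**Figure D5:**
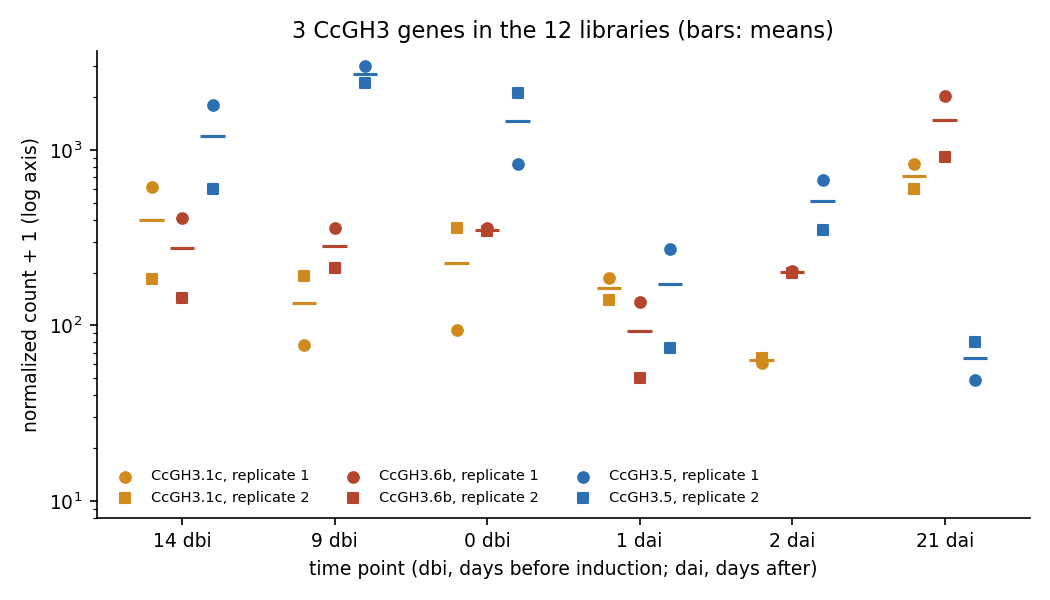
Normalized count plus 1 (vertical log axis) of *CcGH3.1c* (orange), *CcGH3.6b* (red) and *CcGH3.5* (blue) at the 6 time points, with circles for replicate 1, squares for replicate 2 and bars for means of 2 libraries. At 21 dai *CcGH3.6b* is at 2047 and 917, above its 10 other libraries, and *CcGH3.5* is at 48 and 79.8, overlapping 1 dai and below the other time points.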

How the data were processed

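The authors deposited 1 file of whole-number read counts per library, not normalized, for 25574 genes and 5 lines of unassigned reads, which were left out of library sizes and tests. The submitters' processing notes name FastQC 0.11.5, cutadapt 1.14 and HTSeq 0.10.0. Aligner, genome build and strand handling were not given in the sources used here, so that it is not known how reads of overlapping or antisense genes were counted. Total RNA of leaf tissue was sequenced as single-end reads.

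The members and gene lists were chosen with earlier results of these data known. Counts were analysed in R 4.3.3 with edgeR 4.0.16: filterByExpr by time point, TMM size factors and 1 quasi-likelihood fit of all 12 libraries with time point as the factor, which gives a shared estimate of the spread (common biological coefficient of variation 0.587, against 0.379 with the 4 libraries alone). The contrast was 21 dai minus 2 dai, with Benjamini-Hochberg adjustment over 20745 genes. The SE is the log2 fold change divided by the root of F. Normalized counts are relative to a mean effective library size of 23083000. A count of 0 allows up to 0.13 and 0.0821 CPM at 2 dai and 0.297 and 0.0972 CPM at 21 dai (3 counts, counting error only). With 2 libraries against 2, the smallest exact permutation p is 0.333, so no single-gene permutation test was run. DESeq2 1.42.0 was an alternative. The steps were tested on simulated counts, drawn with the same spread for all genes and with independent libraries. Such a simulation cannot show how many of the calls in these data are right.

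Named genes were the 18 *CcGH3* genes and, since identifiers have no description, 2 that rose and 2 that fell, with the largest changes among called genes of non-overlapping libraries and a mean of 100 or more in the higher group; the 3 most abundant called genes in each direction were also looked at. All 25574 identifiers matched the AUK_PRJEB4211_v1 annotation, which was used only for the order of genes. Lists by description words and protein signatures were not applied, since neither was in the sources used here. Alternatives were other size factors and filters, a replicate block, a term for low mapping quality, the 4 libraries alone, and leaving out libraries or time points. The course of the DESeq2 calls over the time points was added after seeing the data.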

Additional observations from a re-analysis of the deposited data

How the results depend on the processing

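The count of 275 called genes was 278 when scaled by RLE, 315 when scaled by library size alone, 245 when each library had to hold 10 counts or more, and 331 with a term for low mapping quality. It moved to 1668 with DESeq2, 442 with no filter, 2730 with only the 4 libraries compared and 813 without 9 dbi and 1 dai, and to 0 to 36 when 1 of the 4 libraries was left out. With 1 library left in a group, its spread is assumed to be that of the other groups. The share of higher genes among calls was 42.2%, but 65% (1775 of 2730) with the 4 libraries alone, 61.1% (497 of 813) without 9 dbi and 1 dai and 52.8% (881 of 1668) with DESeq2. Scaling by library size alone moved the median of all genes to −0.14 on the log2 scale.

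The numbers of the replicates were not taken as pairs, since nothing in the labels links them. The deviations of replicate 1 at 2 and 21 dai correlated across genes with r = 0.333. With a replicate block, 290 genes were called, 229 of them among the 275. Of the *CcGH3* genes, 0 were called, against 3 with DESeq2, 1 (*CcGH3.6b*, adjusted p = 0.0444 in edgeR's quasi-likelihood test) with the replicate block, 5 (*CcGH3.1a*, *CcGH3.1b*, *CcGH3.1c*, *CcGH3.5* and *CcGH3.6b*) with only the 4 libraries and 1 (*CcGH3.6b*) without 9 dbi and 1 dai. The log2 differences that changed sign were those of *CcGH3.3* (−0.16) and *CcGH3.17b* (−0.58) with the replicate block and *CcGH3.17b* (−0.67) with the mapping quality term. Leaving out 1 library gave −0.30 to 1.82 for *CcGH3.3*, −4.35 to 1.49 for *CcGH3.17b*, −0.11 to 2.95 for *CcGH3.1d*, −0.14 to 1.49 for *CcGH3.17a*, −1.03 to 0.13 for *CcGH3.17c*, −0.087 to 0.95 for *CcGH3.17d*, −1.53 to 0.067 for *CcGH3.17h* and −0.0021 to 0.39 for *CcGH3.17i*. The alternatives for gene lists were not run, since the lists could not be applied. The cause of the changes was not tested, beyond the fewer libraries or genes of some settings.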
